A study of Homo sapiens with 2 samples.

Results

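The peaks of the PAX-8 ChIP-Seq list with 30 or more tags were described here, a tag being a sequenced read placed in the genome. They were selected on the tag count alone and number 1302 of 45360 listed peaks (2.87%, 95% Wilson interval 2.72 to 3.03%, a range for counting error only). The remaining 44058 peaks hold 11 to 29 tags and served for comparison. The source was THP-1, a cell line grown from a human monocytic leukemia. The cells became macrophages under 160 nmol/L PMA (24 h) and foam cells, which are laden with lipid, under ox-LDL (48 h), before C18-3OH, the fatty acid 3-hydroxystearic acid, was added. The PAX-8 ChIP library and the Input library, chromatin that skips the immunoprecipitation, came from cells treated alike, so the list compares antibody with Input and not treated with untreated cells. There was 1 ChIP library and 1 peak list, so no value below has a replicate. The number of reads per library was not given in the sources used here, so the depth is unknown. All peak positions are on hg19.

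PAX-8 is a transcription factor of the paired-box family, known from thyroid and kidney, which holds DNA with its paired domain. In ChIP-Seq, a peak caller lists stretches where the antibody library has more tags than a local expectation. The tag count of a peak grows with its length, with the density of tags in it and with how many copies of the DNA the genome holds. Reads from repeated copies can also pile up on a single copy of the assembly, which is common near centromeres, chromosome ends, ribosomal RNA genes and recent gene duplications. The part that copy number or repeats have in the tag counts was not tested. No values of the Input library alone were analysed here, and the local background below was read back from each listed p-value.

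The sequences below show promoter DNA inside 3 peaks with many tags, chosen after their values were seen, to let the reader compare base composition between places. Each is the 250 bases before the gene's start, 5′ to 3′ on the gene's strand, from RefSeq on GRCh38.p14, with every CpG, the dinucleotide that is methylated in mammals, in capitals. MIR663AHG, the host gene of MIR663A, lies on chromosome 20 (26209234 to 26209483, minus strand). Its peak holds 565 tags and lies inside the centromeric bands. BMP8A, a ligand of the TGF-beta family (chromosome 1, 39491386 to 39491635, plus strand), and GUCA2B, the precursor of the gut hormone uroguanylin (chromosome 1, 42153160 to 42153409, plus strand), belong to a long run of peaks with 30 or more tags, with 285 and 255 tags.
MIR663AHG: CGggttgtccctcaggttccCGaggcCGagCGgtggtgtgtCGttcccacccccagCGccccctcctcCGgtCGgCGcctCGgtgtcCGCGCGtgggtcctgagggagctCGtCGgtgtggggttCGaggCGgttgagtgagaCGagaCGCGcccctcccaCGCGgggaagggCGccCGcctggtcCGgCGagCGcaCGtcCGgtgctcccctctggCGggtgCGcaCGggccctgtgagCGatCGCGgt
BMP8A: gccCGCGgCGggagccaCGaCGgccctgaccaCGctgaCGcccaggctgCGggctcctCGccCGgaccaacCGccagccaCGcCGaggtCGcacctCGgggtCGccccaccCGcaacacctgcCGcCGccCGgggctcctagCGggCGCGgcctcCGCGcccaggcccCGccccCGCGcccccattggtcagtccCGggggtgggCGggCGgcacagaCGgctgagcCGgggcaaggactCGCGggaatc
GUCA2B: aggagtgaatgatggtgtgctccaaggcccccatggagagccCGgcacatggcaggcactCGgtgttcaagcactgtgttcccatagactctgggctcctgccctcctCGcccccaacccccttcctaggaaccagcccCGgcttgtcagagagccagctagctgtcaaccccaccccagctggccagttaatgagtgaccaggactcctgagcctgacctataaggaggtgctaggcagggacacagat

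The 3 stretches differ widely in CpG content, with 35 CpG and 74.4% G or C in MIR663AHG, 35 and 79.6% in BMP8A, and 4 and 60.4% in GUCA2B. In all, the 250 bases before the start lay inside a peak with 30 or more tags for 68 genes, of which 50 kept the distance to at least 3 neighbouring starts in both builds and were used. Their median was 68.0% G or C (quartiles 58.5 and 73.6%) and 22 CpG (quartiles 12 and 28.75). For 256 genes inside peaks below 30 tags the medians were 66.8% and 21 CpG, so the base composition of the promoters differed little between the sets. Over all 27305 promoters of the table the medians were 58.0% and 11 CpG. The core of the paired-domain motif, GTCACGC on either strand, was in 0 of the 50 stretches, where the Wilson interval reaches 7.13%. It was in 3 of the 256 (1.17%) and in 607 of the 27305 (2.22%). These letters were searched only in the 250-base stretches and not in whole peaks. Many of the 50 genes lay in the long run on chromosome 1. Some shared a peak, such as BMP8B with LOC101929536 and P3H1 with C1orf50. The 50 stretches are therefore not independent, and the Wilson interval is too narrow.

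Peaks with 30 or more tags were mainly long peaks. Since the rule used the tag count, the following values are a description of what it chose. Their tags ran from 30 to 13742 with a median of 37 (quartiles 32 and 55), and 744 of them (57.1%) held 30 to 39 tags. With 2.87% of the peaks they held 16.5% of all listed tags, 128412 of 777572. The median length was 1385 bp against 586 bp below the limit. 515 of them (39.6%) were longer than 1486 bp, the longest peak below 30 tags. The density differed less than the length, with a median of 28.3 tags per kb against 23.5. 875 of the 1302 (67.2%) had a density inside the central 90% of the peaks below the limit. A density over 100 tags per kb was found in 52 of them (3.99%) and in 0 of the 44058.

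**Figure D1:**
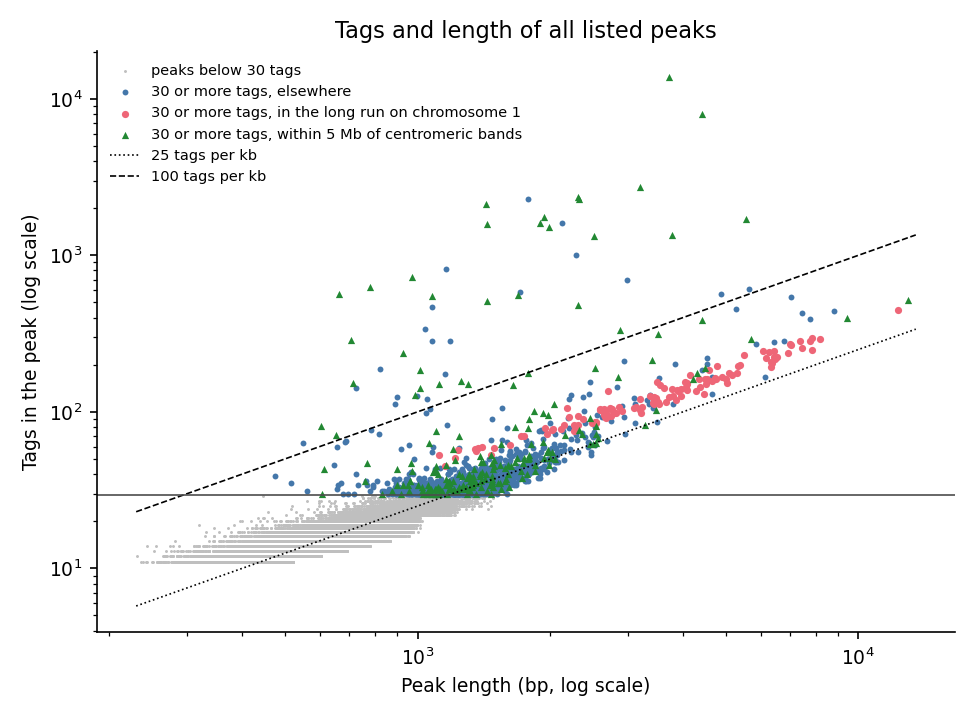
Tags in each listed peak against its length in bp, both on log scales, with the tag limit as a grey line and lines of equal density at 25 and 100 tags per kb. Peaks with 30 or more tags mostly continue the band of the other peaks to greater lengths, the long run on chromosome 1 lies above the line of 25 tags per kb, and 52 peaks lie above 100 tags per kb.

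The limit cut through a continuous range. The 374 peaks with 28 or 29 tags had a median length of 1128.5 bp, a median density of 25.2 tags per kb and a median fold enrichment of 6.62, and the 276 peaks with 30 or 31 tags had 1164 bp, 26.1 tags per kb and 6.61. Of the 5 peaks with the smallest p-values just inside, with 30 tags each, those at MAN2A2, a Golgi mannosidase gene, and SLIT1, an axon guidance gene, had fold enrichments of 13.07 and 11.44, the one at TNFRSF6B and ZGPAT had 15.84, and those at LINC00442 and LOC101929710 had 8.17 each. Just outside, with 29 tags, the peaks at SORCS3, RAMP1, C3orf18, KCNT1 and TIAM1 had 9.84, 10.62, 8.99, 9.73 and 8.50, so both sides overlapped. The one at TIAM1 was a promoter peak.

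More tags did not go with a higher listed enrichment. The fold enrichment had a median of 5.90 for peaks with 30 or more tags against 7.35 below the limit, and it was below 5 in 405 of 1302 (31.1%) against 3.86%. A fold enrichment of at least 10 was listed for 72 of the 1302 (5.53%), near the 4.63% of all peaks. The listed FDR was above 1% in 68 of them (5.22%) and in 6 of the 44058. It was 0 in 25 of them and in none of the 44058. A higher FDR did not mark a weaker p-value in this list. The FDR was 0.14% for a peak of EDN2 with a score of 41.52, where a larger score means a smaller p-value. It was 3.57% for a peak of OR4C46 at 206.43 and 0 for the peak of DBNDD1 at 232.29. By number of tags, the median fold enrichment was 6.46 at 30 to 39 tags, 5.62 at 40 to 59, 4.69 at 60 to 99, 4.34 at 100 to 299 and 5.45 at 300 or more.

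The local background read from the p-value moved with the tags. It is the mean tag number at which a Poisson count would exceed the listed tags with the listed p-value, per kb, and it is given as a multiple of the most common value in the list, 5.94 tags per kb. Over the 1298 peaks with 30 or more tags for which it could be computed the median was 1.77 times, against 1.00 times below the limit. It was over 3 times in 286 (22.0%), while this held for 0.635% of all peaks and for 2 of the 44058. It lay within 1% of the common value in 61 (4.70%), against 55.7% of all peaks. The median was 1.51 times at 30 to 39 tags, 1.93 at 40 to 59, 3.45 at 60 to 99, 3.90 at 100 to 299 and 46.4 at 300 or more. The long run on chromosome 1, described below, weighs on these values. All 122 of its peaks with 30 or more tags had at least 3.38 times and are among the 286. It held 29 of the 108 peaks with 60 to 99 tags and 83 of the 145 with 100 to 299. The listed fold enrichment is not the tags divided by this background, as values for single peaks below show. As the tags and the p-value come from the same comparison that chose the peaks, nothing was tested on these values.

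The position on chromosomes, which the rule did not use, was uneven. Chromosome 1 held 434 of the 1302 peaks (33.3%, 30.8 to 35.9%) but 9.56% of the peaks below the limit, and 9.35% of its 4644 peaks had 30 or more tags. Chromosome 5 followed with 168 (5.41% of its peaks), then chromosome 8 with 135 (4.57%), chromosome 6 with 101 (3.95%) and chromosome 9 with 85 (3.65%). The intervals of these 5 chromosomes lay above the 2.87% of the whole list. Neighbouring peaks are not independent of each other, so the intervals are too narrow wherever such peaks lie in runs. By contrast, chromosome 3 held 15 (0.528%, 0.320 to 0.869%), chromosome 13 held 5 (0.441%) and chromosome 18 held 4 (0.395%). Chromosome Y had few peaks, 45, of which 12 had 30 or more tags (26.7%, 16.0 to 41.0%). Peaks below the limit were higher too on chromosomes 1, 8 and 6, with medians of 15, 17 and 16 tags. The median was 14 on chromosomes 5 and 9 and 13 on chromosomes 3, 13 and 18. The median local background of peaks below the limit was 1.21, 1.32 and 1.31 times the common value on chromosomes 1, 8 and 6. It was 1.02 times on chromosomes 5 and 9 and 1.00 times on chromosomes 3, 13 and 18.

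**Figure D2:**
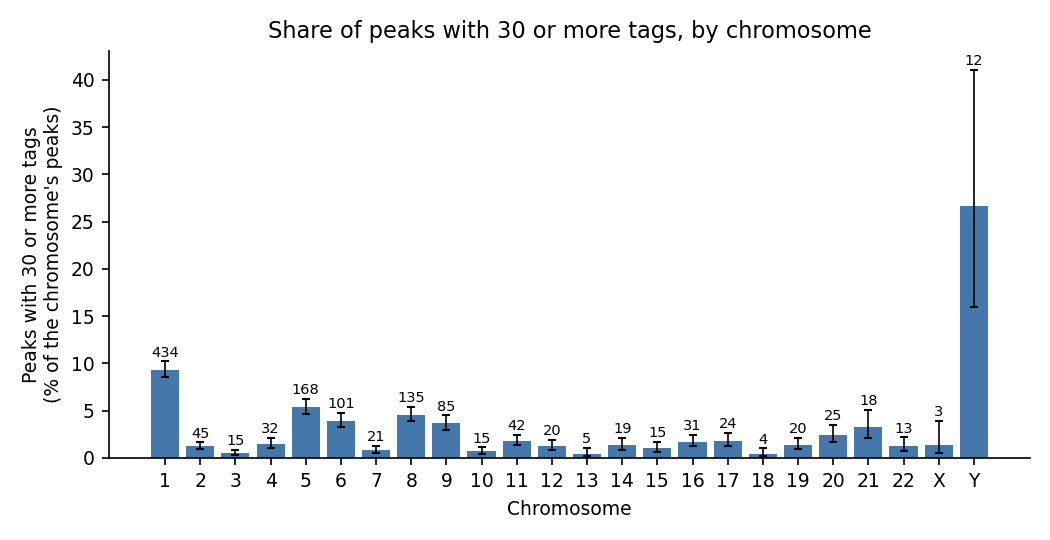
Share of each chromosome's peaks that hold 30 or more tags, in percent, with 95% Wilson intervals as error bars and the number of such peaks above each bar. The intervals of chromosomes 1, 5, 8, 6 and 9 lie above the 2.87% of the whole list, and chromosome Y rests on 45 peaks.

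The share could differ between the arms of a chromosome. On chromosome 5, 156 of 859 peaks of the short arm (18.2%, 15.7 to 20.9%) held 30 or more tags against 12 of 2244 on the long arm (0.535%, 0.306 to 0.932%). The median local background over all peaks of these arms was 1.58 and 1.00 times the common value. On chromosome 20 the shares were 16 of 187 (8.56%) on the short arm and 9 of 856 (1.05%) on the long arm. On chromosome 21, 17 of 21 short-arm peaks and 1 of 531 long-arm peaks were in the set. On these 2 chromosomes, 19 of 25 and 18 of 18 such peaks lay within 5 Mb of the centromeric bands. On chromosome 1 the shares were 208 of 2459 (8.46%) on the short arm and 226 of 2185 (10.3%) on the long arm. Without the long run described next, the short arm had 86 of 2331 (3.69%, 3.00 to 4.53%). The arms of chromosome 8 had 6.27 and 3.70%. Beyond 200 Mb on chromosome 1, with the last 2 Mb before its end left out, 148 of 1111 peaks (13.3%, 11.4 to 15.4%) held 30 or more tags.

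A single stretch of chromosome 1, from 39956695 to 44245440 (4289 kb), held 122 of the 1302 peaks. Of its 128 listed peaks, 95.3% had 30 or more tags. It was found by looking for runs of such peaks, so the count is a description. In the 2 Mb before it 1 of 33 peaks did, and in the 2 Mb after it 5 of 72. The tags of the 122 peaks ran from 45 to 445 with a median of 121.5, their lengths had a median of 3489 bp, and their density kept within 29.0 to 50.2 tags per kb. The change at the edges was abrupt. The last peak before, upstream of KIAA0754, held 15 tags at a background of 1.27 times the common value, and the first inside, in an intron of BMP8A, held 285 tags at 3.76 times. The last inside, at ST3GAL3-AS1, held 80 tags at 3.75 times, and the next, upstream of MIR6079, held 22 tags at 1.18 times.

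For the 122 peaks the local background ran from 3.38 to 5.10 times the common value with a median of 3.79, and the fold enrichment from 2.81 to 6.12 with a median of 4.07. The 6 peaks below 30 tags lay together, from 43677948 to 43772190, at EBNA1BP2, TMEM125 and TIE1, an endothelial receptor tyrosine kinase gene. They held 12 to 25 tags, and they differed from the 122 in background, which was 1.15 to 1.33 times the common value, and in part in fold enrichment, which was 5.00 to 10.69. A gap of 1045 kb without any listed peak separated TRIT1, a tRNA-modifying enzyme gene, from CITED4, a transcriptional coregulator gene, where the median gap between peaks of the stretch was 8.96 kb. Whether the copy number of this stretch differs in these cells was not tested.

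**Figure D3:**
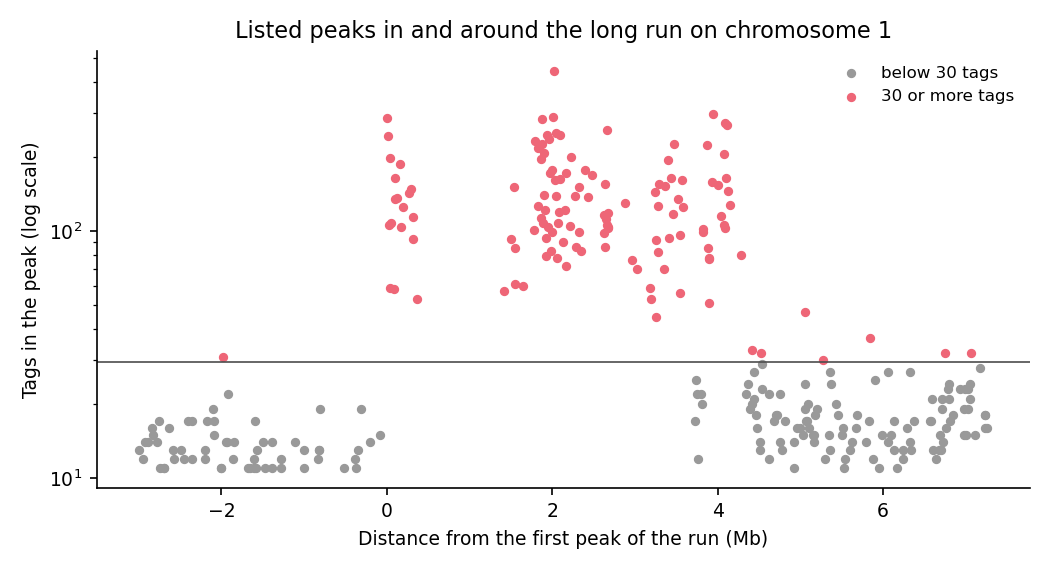
Tags in each listed peak (log scale) against the distance from the first peak of the long run on chromosome 1, in Mb, with the tag limit as a line. Inside the run 122 of 128 peaks stand above the limit, and the 6 others lie together after the gap of 1045 kb and before the end of the run.

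The gene with most of these peaks lay in that stretch. HIVEP3, which encodes a zinc-finger transcription factor, had 23 peaks, and all of them held 30 or more tags, from 72 to 445 with a median of 138. PTPRF, a receptor tyrosine phosphatase gene, had 9 of 9 with 103 to 272 tags. EDN2, which encodes endothelin 2, a vasoconstrictor peptide, had 8 of 8 with 83 to 290 tags, and GUCA2B 7 of 7 with 86 to 255. FOXO6, a forkhead transcription factor gene, and its antisense gene FOXO6-AS1 had 6 of 6 each, and SLC2A1-AS1, beside the glucose transporter gene SLC2A1, 5 of 5. A peak can be assigned to more than 1 gene, so neighbours can share a peak. Among genes elsewhere, CYTOR, a long noncoding RNA on chromosome 2, had 11 of 17, CWH43 on chromosome 4 10 of 13, TTC34 on chromosome 1 8 of 18 and SMYD3, a lysine methyltransferase gene on chromosome 1, 7 of 23.

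Other runs held fewer peaks. Across the centromere of chromosome 1, from 121353951 to 143462650, all 15 listed peaks held 30 or more tags, from 30 to 694, and were assigned to EMBP1, LOC102723769, ANKRD20A12P and RNVU1-1. On the short arm of chromosome 21 all 15 peaks of a stretch at TPTE, TEKT4P2 and the MIR3648 genes held 33 to 2288 tags. A run of 14 of 14 at 16834241 to 17200957 of chromosome 1 covered NBPF1, ESPNP, CROCCP2 and genes for U1 small nuclear RNA, the splicing component that pairs with the start of introns. Between CEP72 and ZDHHC11 on chromosome 5, 16 of 23 peaks were in the set, and at CYTOR and the MIR4771 genes 13 of 14. On chromosome 20, 8 of 9 peaks from 21502241 to 21864081 held 30 or more tags, with a maximum of 81. These were assigned to LINC01432, LINC01726, LINC01727 and to NKX2-2, a homeodomain factor gene of neurons and pancreatic islets, and PAX1, a relative of PAX-8. At the end of the long arm of chromosome 4, 8 of 9 peaks at DBET and FRG2 were in the set, with 27 to 441 tags over all 9. The median local background of all peaks in these runs was 1.94 to 3.25 times the common value, and it reached 101 times in a run of 7 of 7 at OR4C46, an olfactory receptor gene beside the centromere of chromosome 11.

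Another such peak lay within 10 kb of 347 of the 1302 (26.7%), and of 253 of the 1180 outside the long run (21.4%). Of the 44052 peaks below 30 tags outside the long run, 621 (1.41%) had such a peak within 10 kb. Within 100 kb the shares outside the long run were 50.7 and 8.98%. Joining neighbours within 10 kb left 1084 groups.

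Nearness to chromosome ends and to centromeres went with a larger share. Within 2 Mb of an end lay 164 of the 1302 (12.6%, 10.9 to 14.5%) against 5.62% of the peaks below the limit (5.41 to 5.84%), where this window covers 3.10% of the length of the chromosomes. Within 5 Mb of the centromeric bands lay 203 (15.6%, 13.7 to 17.7%) against 7.07% (6.84 to 7.32%), with 11.1% of the length. Within 1 Mb of these bands the shares were 8.91 and 1.84%, and inside them 3.38 and 0.708%. Read the other way, 8.17% of the peaks within 0.5 Mb of an end held 30 or more tags, 6.56% at 0.5 to 1 Mb, 5.34% at 1 to 2 Mb and 3.61% at 2 to 5 Mb. Around centromeres the share was 13.3% within 0.5 Mb, 11% at 0.5 to 1 Mb, 5.73% at 1 to 2 Mb and 2.86% at 2 to 5 Mb. The ends were shared unevenly among chromosomes, since 60 of the 164 lay on chromosome 5. On chromosome 1, 8 of the 434 peaks (1.84%) lay within 5 Mb of the bands, against 1.85% of the chromosome's other peaks. Of the 15 peaks in the run across its centromere, 13 lay outside that window, 13.7 to 14.6 Mb from the bands. Without chromosome 1 the shares for ends and centromeres were 17.4 and 22.5%.

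**Figure D4:**
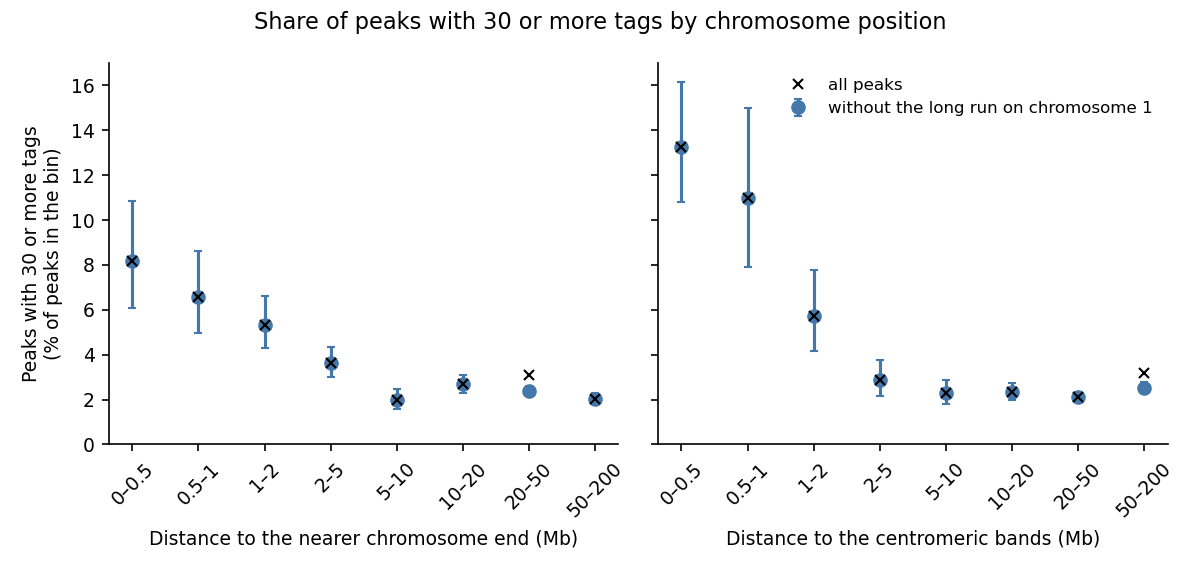
Share of peaks with 30 or more tags, in percent, by distance to the nearer chromosome end (left) and to the centromeric bands (right), in Mb, with points and 95% Wilson intervals without the long run on chromosome 1 and crosses for all peaks. The share is 8.17% within 0.5 Mb of an end and 13.3% within 0.5 Mb of a centromere. At 50 to 200 Mb, without the long run, it is 2.05 and 2.54%, with both intervals below the 2.87% of the whole list.

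The local background of these places was not the same. Near centromeres the 203 peaks had a median of 44 tags and a background of 2.23 times the common value, where it could be computed. Near ends the 164 had a median of 38 tags and 1.67 times. The 318 peaks outside the ends, the centromeres and the other regions that were counted apart, which were chromosomes 6, 8 and 9, the short arm of chromosome 5, the long run and chromosome 1 beyond 200 Mb, had 36 tags and 1.61 times. Of the 41 peaks with 300 or more tags, 25 lay within 5 Mb of the centromeric bands. Of the 145 with 100 to 299 tags, 83 lay in the long run on chromosome 1.

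Promoters took a larger share of the peaks with 30 or more tags over the whole list, an excess that did not exceed counting error once chromosome 1 was left out. A peak was classed as promoter when its centre lay within 2000 bp of a start site, which held for 145 of the 1302 (11.1%, 9.54 to 13.0%) against 7.37% of the peaks below the limit (7.13 to 7.62%). Introns took 27.0% (24.6 to 29.4%) against 35.1% (34.7 to 35.6%). For exons, at 2.92 and 2.22%, upstream regions, at 18.2 and 16.6%, and intergenic DNA, at 40.8 and 38.7%, the intervals of both sets overlapped. The promoter share was 8.60% at 30 to 39 tags, 12.1% at 40 to 59, 16.7% at 60 to 99, 17.9% at 100 to 299 and 12.2% at 300 or more, with wide intervals from 60 tags on. Without chromosome 1 the promoter share was 8.76% (76 of 868, 7.05 to 10.8%) against 7.23%, a value inside that interval, and on chromosome 1 alone it was 15.9% (12.8 to 19.6%) against 8.67%. Ranked by tags per bp in place of tags, the same number of peaks held 7.14% promoters, so the larger share was found for tag number and not for density. Among the 72 peaks with a fold enrichment of at least 10 it was 6.94%.

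**Figure D5:**
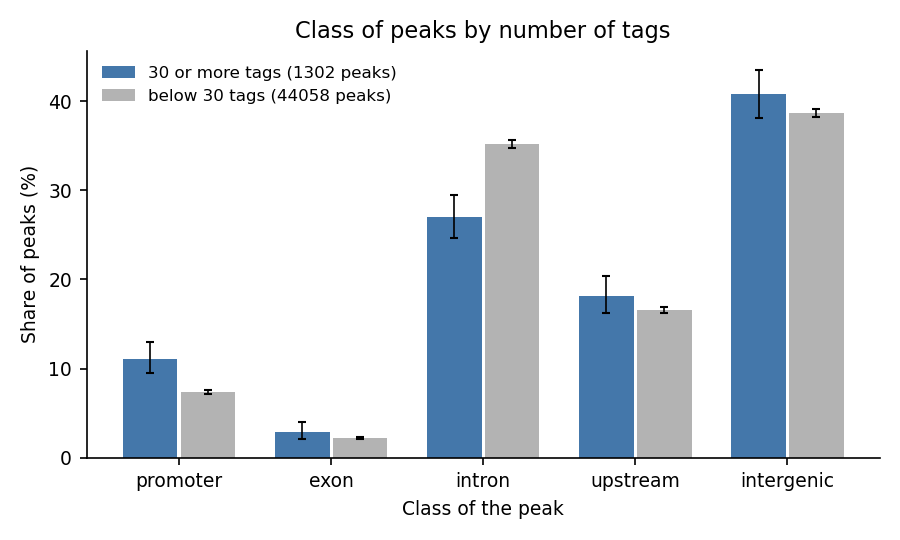
Share of peaks in each class, in percent, for the 1302 peaks with 30 or more tags and the 44058 below, with 95% Wilson intervals as error bars. The promoter bar is higher (11.1 against 7.37%) and the intron bar lower (27.0 against 35.1%) for peaks with 30 or more tags.

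The promoter share depended on the place. It was 17.2% in the long run (21 of 122). In the 318 peaks outside all regions counted apart it was 14.5% (46, 11 to 18.8%), where 7.12% of the peaks below the limit were promoter peaks. These 318 still include peaks of chromosome 1, such as the promoter peaks of PDE4DIP and CROCCP2. Their promoter share without chromosome 1 was not computed. Near chromosome ends the promoter share was 8.54% (5.15 to 13.8%) against 14.3% of the peaks below the limit. There the order was turned round, with the interval just short of that value. Of these 164 peaks near ends, 60 lay on chromosome 5, which had 5 promoter peaks among all its 168 in the set. The ends of the other chromosomes were not counted apart. Near centromeres the promoter share was 6.40% against 6.61%, and 74.4% of the peaks were intergenic. On the short arm of chromosome 5 outside its end and centromere 2 of 92 were promoter peaks (2.17%).

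Several of the promoter peaks with most tags lay at genes for small RNAs. The peak over MIR3648-1, MIR3648-2 and MIR10396A on chromosome 21 (9825372 to 9827691), 82 bp from a start site, held 2288 tags (95% Poisson interval 2195 to 2384) at a fold enrichment of 6.86. At MIR663A and MIR663AHG on chromosome 20, inside the centromeric bands, 2 peaks held 565 and 239 tags, with 851 and 258 tags per kb. The promoter of the latter gene is the first sequence printed above, and its background was 56.2 times the common value. A peak of 541 tags on chromosome 1 covered 7048 bp (228775658 to 228782705) and was assigned, among others, to the pseudogene DUSP5P1 and to all 16 symbols of 5S ribosomal RNA genes that have a listed peak. 5S RNA is a part of the large ribosomal subunit, is transcribed by RNA polymerase III, and its genes stand in tandem. Its fold enrichment was 3.03, its FDR 3.7% and its background 8.36 times the common value. In the long run the promoter peaks included GUCA2B with 255 tags, SLC2A1-AS1 with 225, MIR6734 with 222 and EDN2 with 176, all at 3.45 to 3.82 times. The background was 3.45 times at GUCA2B and 3.76 times at BMP8A, whose printed promoters hold 4 and 35 CpG.

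Pseudogenes and duplicated genes held several others. Promoter peaks lay at REXO1L2P, a pseudogene of an exonuclease-like family on chromosome 8, with 612 and 211 tags, at CROCCP2 with 221 and at BMS1P22 with 176. PDE4DIP, which encodes a centrosome and Golgi protein, had a promoter peak of 273 tags at 5.37 times the common background, and the NOTCH2NL genes of chromosome 1 shared one of 155 tags. Over 34 gene families known from duplicated or repeat-rich DNA, 272 peaks were assigned to their 104 symbols with a peak, and 52 of these (19.1%, 14.9 to 24.2%) held 30 or more tags, where 2.87% of all peaks did. 15 of the families had such a peak. The NBPF family had 8, TPTE 7, and the FRG2, POTE and ANKRD20A families 5 each. These 52 are 3.99% of the 1302, so most peaks with 30 or more tags lay outside these families. The families were listed with earlier results of these data known.

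Most of the highest tag counts lay in intergenic DNA close to centromeres. Of the 10 peaks with most tags, 8 lay within 5 Mb of the centromeric bands and 9 were intergenic, the promoter peak over MIR3648-1 being the exception to the latter. LINC00680 on chromosome 6 was assigned a peak of 13742 tags over 3717 bp, inside the centromeric bands and 490 kb from the nearest start site, with a fold enrichment of 2.75, the lowest of all listed peaks. LOC441666 on chromosome 10, a transcribed pseudogene, had 4 peaks with 30 or more tags among 9 listed. The largest 2, with 7957 and 2719 tags, lay 299 and 99.4 kb from the bands. The peaks of OR4C46 with 2359, 2134 and 1755 tags lay 9.32 to 20 kb from the bands of chromosome 11. Their listed fold enrichments were 4.17, 5.34 and 7.73, while their tags were 1.22, 1.98 and 1.52 times their own local background. For the LOC441666 peak of 2719 tags these values were 3.99 and 1.13. The other 2 of the 10 lay outside this 5 Mb window, which was measured from the centromeric bands and not from the variable heterochromatin bands. A peak of 2274 tags assigned to LOC101928381 lay 16.3 Mb from the bands of chromosome 9 and had the highest background that could be computed, 149 times the common value. The peak with 1612 tags assigned to PLEKHG4B, a guanine nucleotide exchange factor gene, started at 9931 of chromosome 5, and its centre lay 11 kb from the end. At the opposite end of the range, the peaks at SRFBP1, FBN3, a fibrillin gene, and TLX1NB had the lowest backgrounds, 0.943, 1.00 and 1.00 times the common value, with 31, 33 and 31 tags.

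Among the 1302 peaks, the highest fold enrichments did not belong to those with most tags. The peak assigned to WASH8P, a pseudogene of the actin regulator WASH, 95.4 kb from the end of chromosome 12, had 77 tags and a fold enrichment of 38.33 at 1.13 times the common background. An intronic peak of MYO1D, a myosin gene on chromosome 17, had 188 tags and 24.98 at 5.72 times. Next in the set, below the highest value among peaks under 30 tags, 16.34, came the peak upstream of TNFRSF6B, a decoy receptor gene, and ZGPAT, with 30 tags and 15.84, and the promoter peak of MIR5584 with 47 tags and 14.95. Of the 10 with the highest fold enrichment, 2 had a background within 1% of the common value, those at DBNDD1 with 59 tags and at ZNF114 with 39. The tags over the peak's own local background were lower than the listed fold enrichment, at 14.6 for WASH8P and 6.72 for MYO1D.

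Genes tied to PAX-8 or to foam cells were in the set at a share that could not be told from that of all genes at these counts. Over 4 lists, 3 of 39 genes with a listed peak had one with 30 or more tags (7.69%, 2.65 to 20.3%), against 976 of all 15736 symbols with a peak (6.20%). Of 15 genes listed as known PAX-8 targets or thyroid genes, 13 had a listed peak and 2 had one with 30 or more tags. TERT, the catalytic subunit of telomerase, had 4 such peaks with 33, 47, 34 and 30 tags, 3 in introns and 1 upstream, all on the short arm of chromosome 5, where 18.2% of all peaks were in the set. TG, the thyroglobulin gene, had an intronic one with 44 tags and a fold enrichment of 5.00. Of 18 cholesterol efflux genes, 10 had a peak and only RXRA, a nuclear receptor that partners LXR, had one in the set, with 30 tags. Of 12 genes for scavenger receptors and foam cell formation 9 had any peak, of 11 myeloid identity genes 7, and 0 of either list had one with 30 or more tags. The list holds no expression values, so the cell type could not be checked from it.

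In all, 976 gene symbols were assigned to a peak with 30 or more tags, of 15736 with any peak. Protein-coding genes made up 62.0% of the first and 69.9% of the second, transcribed pseudogenes 6.66 and 3.65%, long noncoding RNAs 21.0 and 19.5% and microRNAs 6.97 and 5.42%. Genes for small nuclear RNAs had 6 of 26 symbols with such a peak, but these rest on 4 peaks, since RNU1-1 to RNU1-4 and RNVU1-18 share 2 of them. 91 symbols had 3 or more of these peaks. By staining of the chromosome bands, 12.4% of the peaks in centromeric bands and 8.21% in the variable heterochromatin bands held 30 or more tags, against 3.07% in the unstained bands. From the lightest to the darkest of the stained bands the shares were 4.91, 2.22, 1.22 and 1.28%. All band shares include the long run on chromosome 1, and shares without it were not computed.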

How the data were processed

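PAX-8 ChIP-Seq gave 1 deposited peak list, the ChIP library against the Input library of foam cells after C18-3OH. The authors' list gives per peak the count of tags, the fold enrichment (ratio), a score (the negative log10 of the p-value, times 10), the FDR in percent, the length, a class and RefSeq transcripts. FastQC and hg19 are named in the submitters' processing notes. For the peak caller, aligner and read totals nothing is given in the sources used here.

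Its 103443 lines, 1 per peak and transcript, were reduced to 45360 unique positions. Peaks with at least 30 tags were compared with the rest as shares with 95% Wilson intervals, which cover counting error only, and no p-values were computed. Chromosome lengths and bands of hg19 came from GenomeInfoDb 1.38.1 and circlize 0.4.16. Distances were taken from peak centres. The local background was solved from a Poisson model, leaving out the 4 peaks at the largest score, 3100, and the solving step was tested on simulated data. Runs were stretches where peaks of at least 30 tags outnumber the others by 4 or more. Symbols were matched to RefSeq of GRCh38.p14 by accession (969 of 976), symbol (2) or synonym (4). No coordinates were converted between builds, and the printed sequences follow the gene, not the hg19 position.

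The genes named were those with the 10 most tags, highest fold enrichments or most tags per bp, up to 15 promoter peaks by tags, genes with 3 or more such peaks (up to 10), the extremes of background and end distance, 5 peaks on each side of the limit and list members with such a peak, as far as they are described. Genes named for runs, families and sequences were chosen after their values were seen. The peaks and the gene lists were chosen with earlier results of these data known. Alternatives were other tag limits, FDR and fold limits, merged peaks, other rankings and other windows. These steps were run with scipy 1.17.1, pandas 2.3.3, numpy 2.4.6 and matplotlib 3.10.9 under Python 3.11.15.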

Additional observations from a re-analysis of the deposited data

How the results depend on the processing

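With 1 ChIP library no replicate could be left out. No paired analysis was possible because there is no second group or replicate. The number of peaks with 30 or more tags was 1234 at an FDR of at most 1%, 897 at a fold enrichment of at least 5, 1524 after merging peaks within 500 bp and 1097 without peaks within 10 kb of one with more tags, a count added after seeing the data. The FDR limit left out some peaks with small p-values, such as the 5S ribosomal RNA peak with a score of 208.61. Shares below are given for promoters, for 2 Mb from ends, for 5 Mb from centromeric bands and for chromosome 1, in this order. They were 9.48, 8.65, 9.42 and 22.4% at a limit of 20 tags, 15.7, 10.2, 23.2 and 50.8% at 50, and 16.7, 6.99, 24.7 and 56.5% at 100. Peaks below these limits had 7.15, 5.36, 6.97 and 8.26% at 20 tags. At 50 they had 7.41, 5.78, 7.19 and 9.91%, and at 100 7.44, 5.81, 7.25 and 10.0%. At a fold enrichment of at least 10 (72 peaks) the shares of the set were 6.94, 20.8, 6.94 and 22.2%, and ranked by tags per bp 7.14, 7.07, 12.1 and 18.7%. For promoters these last 2 settings, and for centromeres the fold limit and chromosome 1 alone, gave a share below that of the other peaks, against 13 of 15 settings above it for each. For ends all 15 lay above, but at a limit of 100 tags the interval, 4.13 to 11.6%, held the 5.81% of the other peaks, and on chromosome 1 alone, 1.76 to 5.06%, it held their 2.30%.

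The chromosome 1 share was 26.4% at a fold enrichment of at least 5, 30.1% after merging, 30.3% without near neighbours and 26.4% without the long run. The promoter share was 13.4% with a start site within 3 kb of the centre, against 9.56% of the peaks below the limit. The share near ends was 6.76% within 1 Mb and 21.3% within 5 Mb, against 2.56 and 12.5% below the limit. Near centromeres it was 8.91% within 1 Mb and 11.8% within 2 Mb, against 1.84 and 3.22%. On chromosome 1 alone promoters, ends and centromeres took 15.9, 3.00 and 1.84%, and without it 8.76% (7.05 to 10.8%, against 7.23% of the other peaks), 17.4 and 22.5%. The settings with and without chromosome 1 or its long run were chosen after seeing the data. Read as a chance of at least the listed tags, the p-value gave 24.7% of peaks over 3 times the common background, against 22.0%. Another such peak lay within 100 kb of 55.2% and within 1 Mb of 88.2%, against 26.7% within 10 kb. The other 25 of 63 alternatives stayed inside the counting interval of the share, or within 1.5 times the count. No peak had more than 1 class, so the order of classes had no effect. The cause of the changes was not tested.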
